A study of Homo sapiens with 24 samples.

Results

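Heat shock chaperones of the cytosol and the mitochondria were described in LNCaP cells, a line from a human prostate cancer metastasis, after 12 and 24 hours with ST045849, a small-molecule inhibitor of O-GlcNAc transferase (OGT), or after small interfering RNA against OGT (siOGT). The 40 genes were chosen by symbol and read by their brightest probe, and 34 of the 40 passed the detection filter among the 10345 genes tested. The 8 groups were ST045849, vehicle, siOGT and scrambled control at each time, with 3 arrays each, 24 in all, which the labels call biological replicates. All cells grew in RPMI medium with serum and were plated directly onto the compound, its vehicle or the RNA, while the sources used here give neither the dose nor the number of siRNA sequences. OGT places a single sugar, N-acetylglucosamine, on proteins of the nucleus and cytosol, and the series asked how that mark bears on the stability of the transcription factor MYC. Each array held the RNA of a whole culture, so that fewer cells and less RNA per cell cannot be told apart.

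HSP70 proteins bind short hydrophobic stretches of unfolded proteins in a cycle of ATP hydrolysis that J-domain proteins start and nucleotide exchange factors, among them HSP110 and BAG proteins, end. HSP90 receives partly folded kinases and steroid receptors, including the androgen receptor on which LNCaP cells depend, through adaptors such as STIP1 and CDC37, and the ring-shaped chaperonin CCT folds actin and tubulin inside its chamber. Many of these genes are switched on under heat or proteotoxic stress by heat shock factor HSF1, which binds inverted repeats of the bases GAA, the heat shock element.

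Promoter sequence shows which of these genes hold that element near a start. RefSeq windows of GRCh38.p14, 300 bases each from 250 bases before to 50 bases after a gene's start, were at hand for 36 of the 40 genes, and not for HSPA14, HSF1, CCT6A and FKBP4. These 36 genes had 50 windows, since some have more than 1 start. A gene was counted when any of its windows held a match, here and for all genes. The pair of repeats GAANNTTC or TTCNNGAA lay in 20 of these 36 genes (55.6%), against 16.2% of all 27305 genes with a window. The stricter run of 3 repeats, GAANNTTCNNGAA or TTCNNGAANNTTC, which contains the pair, lay in 7 of 36 (19.4%), against 0.608% of all genes. Those 7 were CHORDC1, DNAJA1, DNAJB6, HSP90AA1, HSP90AB1, HSPA8 and HSPD1. Each element reads the same way on both strands or was searched on both. The E-box CACGTG, the core site of MYC and related factors, lay in 4 of 36 (11.1%), against 8.77% of all genes, and CCAAT on either strand in 13 of 36 (36.1%), against 39.7%. The E-box genes were HSPA9, HSPD1, HSPE1 and HSF2. A match is a description of letters, not a bound site. The stretches below are shown because their genes carry the results that follow, 5′ to 3′ on the gene's own strand, with heat shock elements in capitals in the first 6 and the E-box in capitals in HSPA9 and HSPE1.
CHORDC1, chr11:90223050-90223129, minus strand: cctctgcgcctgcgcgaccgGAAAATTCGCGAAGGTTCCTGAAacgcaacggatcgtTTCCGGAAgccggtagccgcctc
HSP90AB1, chr6:44247758-44247863, plus strand: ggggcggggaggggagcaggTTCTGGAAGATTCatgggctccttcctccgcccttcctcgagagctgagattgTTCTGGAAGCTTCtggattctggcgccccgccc
HSP90AA1, chr14:102087085-102087152, minus strand: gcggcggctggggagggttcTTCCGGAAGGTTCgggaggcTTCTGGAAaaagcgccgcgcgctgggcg
HSPA8, chr11:123062159-123062211, minus strand: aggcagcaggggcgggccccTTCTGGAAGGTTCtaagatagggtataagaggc
DNAJB1, chr19:14518417-14518494, minus strand: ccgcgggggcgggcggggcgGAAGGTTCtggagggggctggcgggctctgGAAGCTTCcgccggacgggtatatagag
HSPA1B, chr6:31827613-31827660, plus strand: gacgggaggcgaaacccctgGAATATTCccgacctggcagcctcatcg
HSPA9, chr5:138575402-138575440, minus strand: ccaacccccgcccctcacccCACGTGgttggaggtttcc
HSPE1, chr2:197500337-197500378, plus strand: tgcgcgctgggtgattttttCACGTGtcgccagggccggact
Within the printed stretches CHORDC1 held 5 matches of the pair, overlapping ones included, HSP90AB1 4, HSP90AA1 3, HSPA8 and DNAJB1 2 each and HSPA1B 1. The full windows of CHORDC1 and HSPA8 held 6 and 4, as matches farther from the start were left out of those stretches. A start of HSPD1 and that of HSPE1, which are read in opposite directions, lay 105 bases apart. The E-box printed for HSPE1 is the same site that this HSPD1 window holds. The run of 3 repeats in HSPD1 lay in the window of another start, 539 bases from that of HSPE1.

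**Figure D1:**
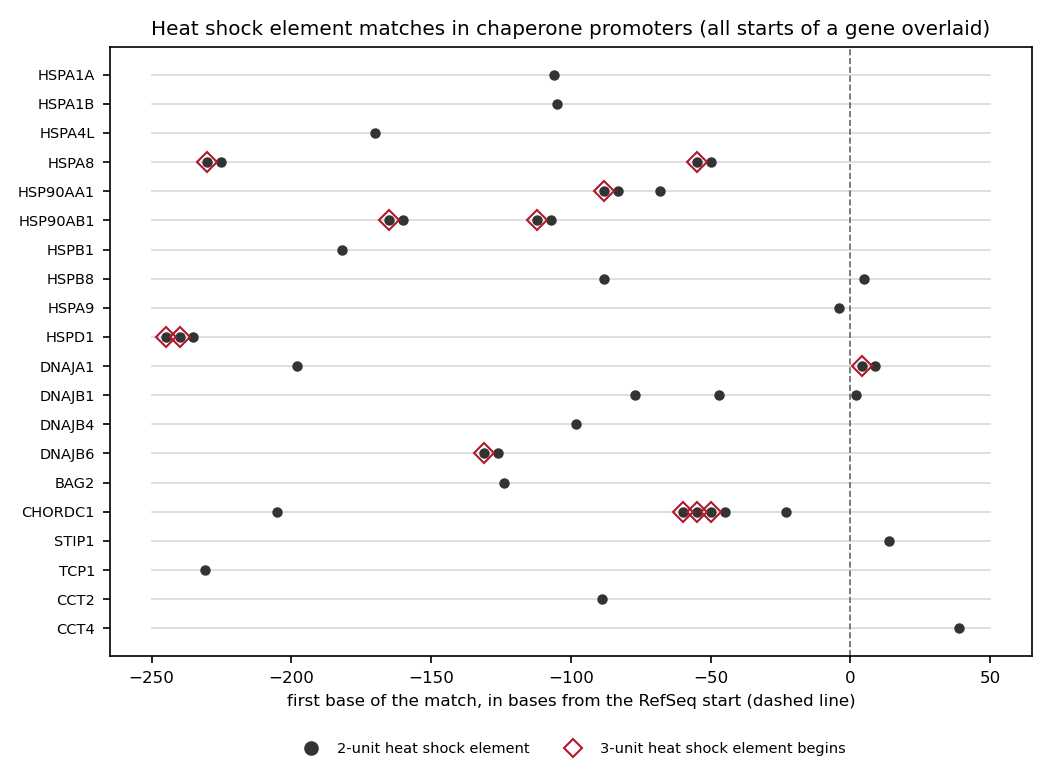
First base of each heat shock element match in the promoter windows, in bases from the RefSeq start (dashed line), for the 20 genes with a match, 1 a row. All starts of a gene are overlaid. Dots mark pairs of repeats and open diamonds the beginning of a run of 3, which appears in 7 genes.

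Of the 6 genes without a result, HSPA1A and HSPB8 had a probe detected on 0 arrays, HSF1 and BAG1 on 1, and HSF2 and AHSA1 had no probe with their name in the platform annotation. The regulator HSF1 is therefore not followed here. HSPA1A and HSPA1B, the inducible HSP70 genes, are near-identical copies, and the signal given for HSPA1B cannot be assigned to either with certainty. Of the 34 tested genes 32 were detected on all 24 arrays, BAG2 on 22 and DNAJB4 on 16. Levels are normalised log2 intensities, which do not compare 1 probe with another.

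The arrays were alike in quality, with 13993 to 16246 probes detected and a correlation of 0.987 to 0.993 within groups. All 7 luminal prostate markers with a probe were detected on all 24 arrays, whereas 2 of 2 basal, 3 of 4 stromal, 2 of 2 leukocyte and 1 of 2 endothelial markers were detected on 0. The exceptions were ACTA2 and VWF, on 24 arrays. OGT averaged 7.13 ± 0.51 with siOGT and 8.89 ± 0.18 with scrambled RNA over both times (SD, n = 6 each), 29.4% of the scrambled level (limma, adjusted p = 3.77e-06), and differed by 0.49 ± 0.16 (SE) with ST045849 against vehicle (adjusted p = 0.027). On the first principal component the 6 ST045849 arrays (14.1 to 29.2) lay apart from the other arrays (-12.9 to -1.27). Within each treatment it also parted 12 hours replicate 3 and 24 hours replicates 1 and 3, the first array set, from the rest, the second set. This division, taken from the vehicle arrays, crosses the labelled times, and the first set lay higher with ST045849 and lower in the other treatments. Each group holds both sets, so values within each set are given beside the main result.

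With ST045849, transcripts of HSP90, most of its co-chaperones and part of the CCT ring were lower than with vehicle, and that of the mitochondrial HSP70, HSPA9, was higher. Over both times 16 of the 34 genes fell (47.1%), against 14.7% of all genes tested, and 1 rose (2.94%), against 17.7% (limma on 8 group means, adjusted p under 0.05). The median log2 change was -0.19 over the 34 genes and 0.02 over all genes, and 31 of 34 changes were negative. In 4 genes, HSP90AA1, HSP90AB1, DNAJB1 and CCT6A, all 6 treated arrays lay below all 6 vehicle arrays, which was so for 6.65% of all genes. By role, 2 of 2 HSP90 genes, 4 of 5 HSP90 co-chaperones, 5 of 8 CCT subunits, 3 of 6 HSP70 and HSP110 genes and 2 of 5 J-domain genes fell. Of the 5 mitochondrial chaperones 0 fell, and neither the BAG genes tested nor HSPB1 was called. The changes were small: the largest called fall, that of PTGES3, left 63.7% of the vehicle level, and the others left more.

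**Figure D2:**
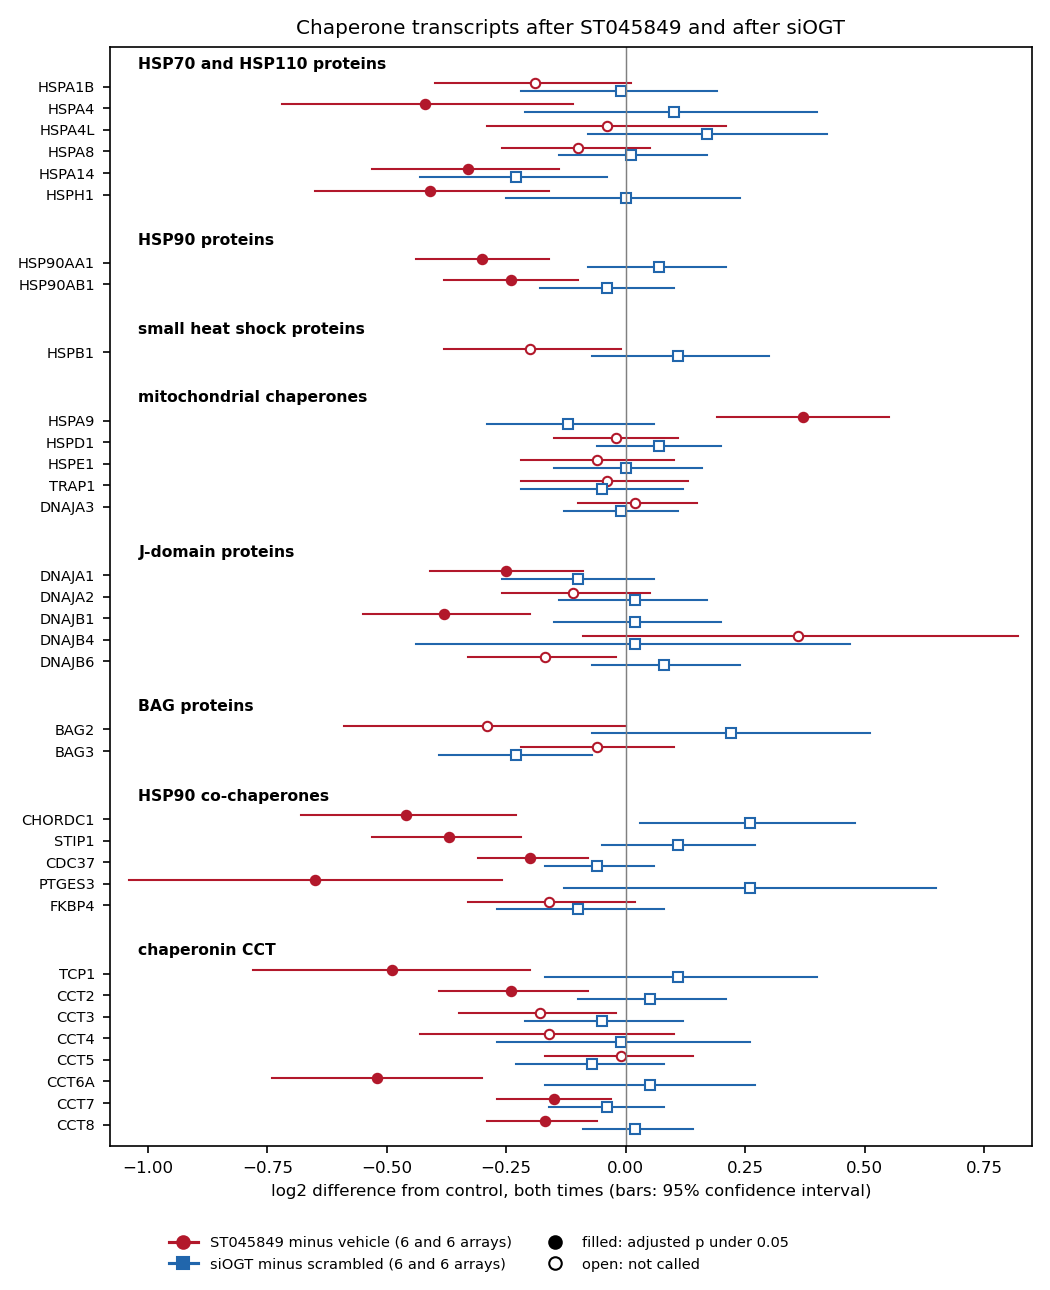
Log2 change over both times of the 34 chaperone genes, grouped by role, for ST045849 minus vehicle (circles) and siOGT minus scrambled (squares), with 95% confidence intervals from the limma fit and filled marks for an adjusted p under 0.05. The filled circles are 16 falls and the rise of HSPA9, and no square is filled.

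Both array sets leaned toward lower values. Within the first set 30 of 34 genes were lower with ST045849 than with vehicle (median -0.29, all genes 0.03), and within the second 27 of 34 (median -0.13, all genes 0). The 17 called genes kept their sign in each set (17 of 17 and 17 of 17). They were called on these same arrays, so that agreement is largely built in and is not separate support. Several of the larger falls came mostly from the first set. PTGES3 changed by -1.13 in the first set and -0.17 in the second, TCP1 by -0.83 and -0.14, and CHORDC1 by -0.73 and -0.18. Others were closer, CCT6A with -0.69 and -0.35 and STIP1 with -0.37 in each set. These within-set values carry no test.

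HSP90 itself came down against vehicle. HSP90AA1, the stress-inducible cytosolic form, read 13.31, 13.34 and 13.11 with ST045849 at 12 hours and 13.03, 13.17 and 13.05 at 24 hours, against 13.45, 13.43 and 13.52 with vehicle at 12 hours and 13.66, 13.35 and 13.39 at 24 hours. The 6 treated arrays all lay below the 6 vehicle arrays, if only by 0.01 at the closest. The change was -0.30 ± 0.07 over both times (adjusted p = 0.00208, 81.2% of vehicle). Its other probe detected on all arrays changed by -0.22 ± 0.08, whereas a dim probe, detected on 7 arrays, differed by 0.06 ± 0.16, and the mean of the 3 was not called (-0.15, adjusted p = 0.108). HSP90AB1, the constitutive form, had 12.22, 12.22 and 12.11 and then 11.95, 12.12 and 12.06 with ST045849, against 12.39, 12.36 and 12.30 and then 12.34, 12.33 and 12.37 with vehicle, at 12 and 24 hours. Here too the groups did not overlap, with a change of -0.24 ± 0.07 (adjusted p = 0.0097, 84.9% of vehicle). The scrambled arrays of HSP90AB1 ran from 11.91 to 12.46, so the lowest of them lay under every ST045849 array. Its ST045849 effect minus its siOGT effect was not called. Both genes carry a run of 3 repeats in the stretches printed above, and HSP90AB1 carries it more than once.

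Most HSP90 co-chaperones fell with it. STIP1, which bridges HSP70 and HSP90, had 10.48, 10.60 and 10.41 with ST045849 at 12 hours and 10.25, 10.46 and 10.24 at 24 hours, against 10.90, 10.85 and 10.77 and then 10.58, 10.90 and 10.67 with vehicle. Every treated array lay below every vehicle array of its own time, and the change was -0.37 ± 0.08 (adjusted p = 0.000778). CHORDC1, a zinc-binding HSP90 partner with the most heat shock element matches among the sequences printed above, had 9.21, 8.96 and 8.95 and then 8.67, 8.85 and 8.59 with ST045849, against 9.26, 9.38 and 9.29 and then 9.53, 8.93 and 9.57 with vehicle. The groups did not overlap within either time, and the change was -0.46 ± 0.11 (adjusted p = 0.00299). PTGES3, the p23 protein that stabilises the closed HSP90 dimer, had 10.62, 9.72 and 9.52 and then 9.47, 9.63 and 9.54 with ST045849, against 9.64, 10.44 and 10.64 and then 10.51, 10.40 and 10.77 with vehicle. At 12 hours replicate 1 of both groups ran against the rest, the highest of the treated and the lowest of the vehicle arrays, while at 24 hours all 3 treated arrays were lower. Its change over both times was -0.65 ± 0.19 (adjusted p = 0.0116), and -0.50 (adjusted p = 0.122) with the replicates left out whose set crosses their time. CDC37, the kinase adaptor, fell by 0.20 ± 0.05 (adjusted p = 0.00865), and FKBP4, a peptidyl-prolyl isomerase of steroid receptor complexes, differed by -0.16 (adjusted p = 0.169).

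**Figure D3:**
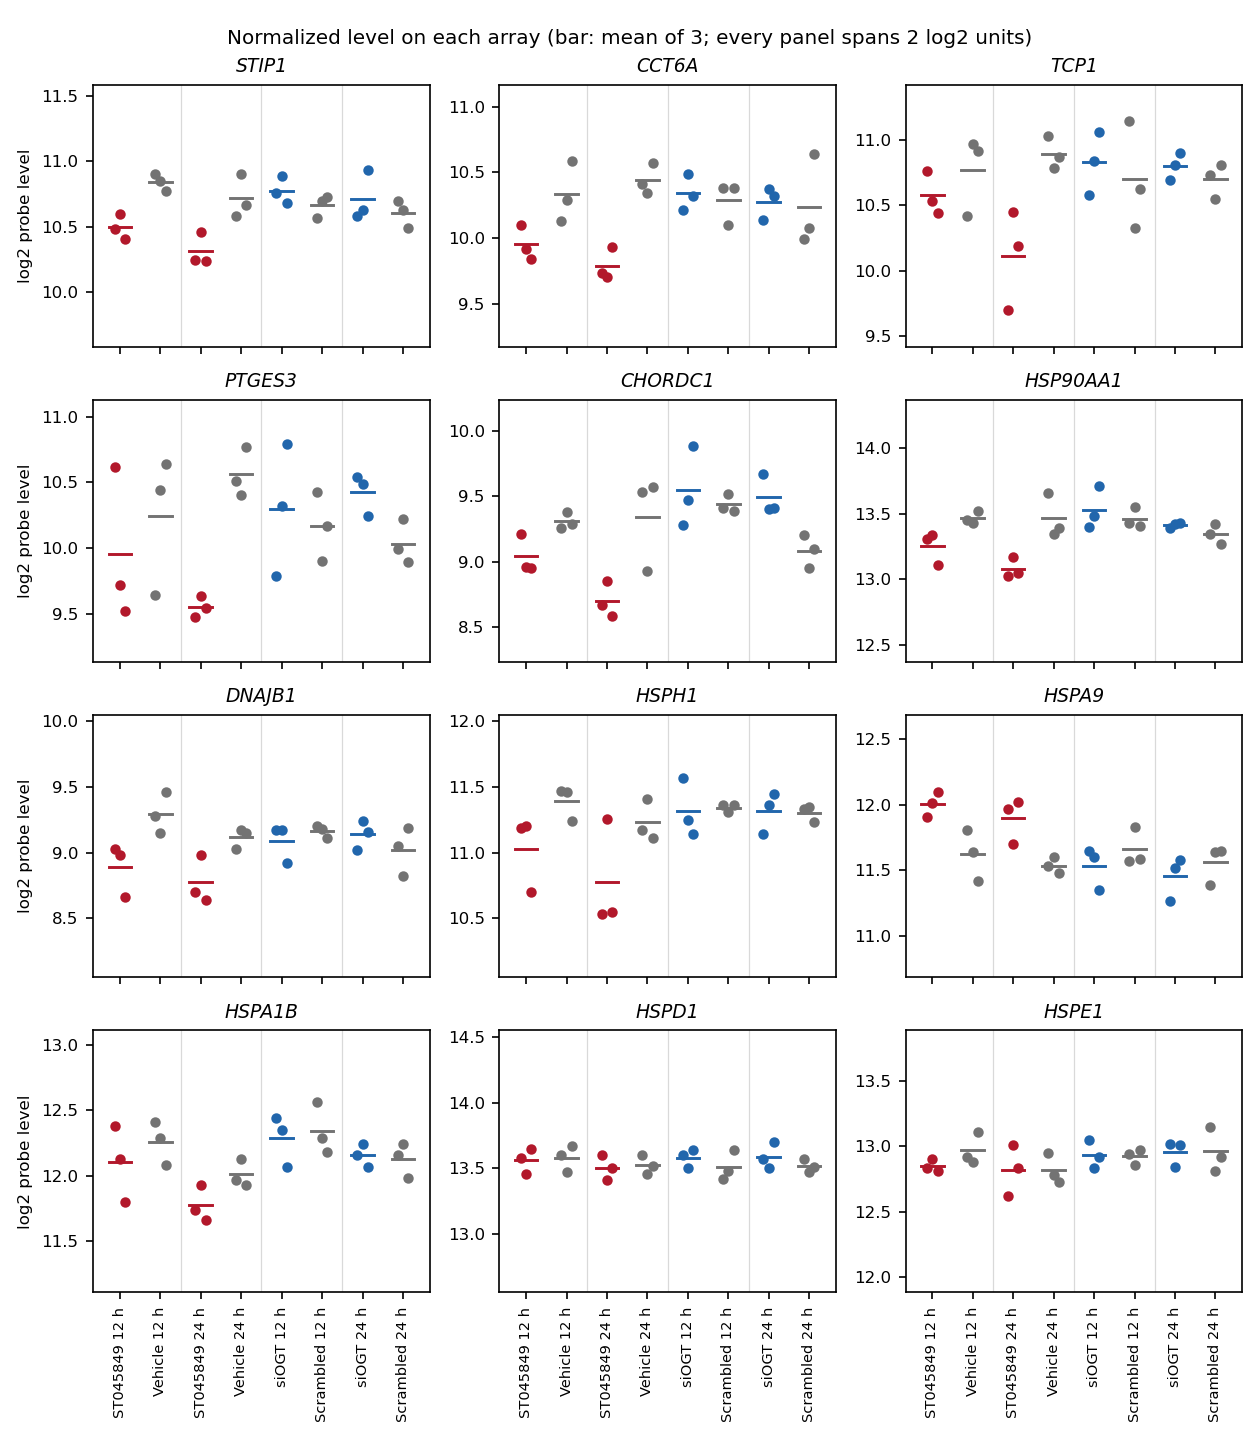
Log2 level on each array of 12 of the genes, with ST045849 left of vehicle and siOGT left of scrambled at each time, and a bar at each mean of 3 arrays. The ST045849 points lie below the vehicle points in most panels, lie above them for HSPA9, and mix with them for HSPD1 and HSPE1.

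Among the HSP70 partners, DNAJB1, the main heat-inducible J-domain protein of the cytosol, had 9.03, 8.98 and 8.66 with ST045849 at 12 hours and 8.70, 8.98 and 8.64 at 24 hours, against 9.28, 9.15 and 9.46 and then 9.03, 9.17 and 9.15 with vehicle. The 6 treated arrays lay below the 6 vehicle arrays, although the nearest pair both round to 9.03, and the change was -0.38 ± 0.09 (adjusted p = 0.00209). HSPH1, the HSP110 protein that recharges HSP70 with ATP, had 11.19, 11.20 and 10.70 and then 10.53, 11.26 and 10.55 with ST045849, against 11.47, 11.46 and 11.24 and then 11.17, 11.41 and 11.11 with vehicle. The groups were apart at 12 hours and overlapped at 24 hours. The treated arrays of the first array set, 10.70, 10.53 and 10.55, were the low ones, and the change was -0.41 ± 0.12 (adjusted p = 0.0112). HSPA4, another HSP110 family member, had 8.61, 8.19 and 8.0 and then 7.82, 7.96 and 8.20 with ST045849, against 8.23, 8.43 and 8.57 and then 8.66, 8.73 and 8.68 with vehicle. The groups overlapped at 12 hours and not at 24 hours. Its change of -0.42 ± 0.15 (adjusted p = 0.0343) lost its call in 12 of 26 alternative settings, among them the removal of ST045849 12 hours replicate 3 (-0.35, adjusted p = 0.097), and a second probe differed by -0.14 ± 0.08 (adjusted p = 0.233). DNAJA1, a J-domain protein anchored by a lipid group, fell by 0.25 ± 0.08 (adjusted p = 0.0141) and HSPA14, an HSP70-like protein of the ribosome, by 0.33 ± 0.09 (adjusted p = 0.00857).

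Of the cytosolic HSP70 genes HSPA1B and HSPA8 were not called. HSPA1B had 12.38, 12.13 and 11.80 with ST045849 at 12 hours and 11.74, 11.93 and 11.66 at 24 hours, against 12.41, 12.29 and 12.08 and then 11.97, 12.13 and 11.93 with vehicle. The groups overlapped at 12 hours and met at 11.93 at 24 hours, and the change was -0.19 (95% interval -0.40 to 0.01, adjusted p = 0.141). HSPA8, the constitutive HSP70, had 13.69, 13.68 and 13.51 and then 13.50, 13.59 and 13.47 with ST045849, against 13.80, 13.75 and 13.66 and then 13.41, 13.72 and 13.72 with vehicle. The groups overlapped, and the interval of the difference ran from -0.26 to 0.05 (adjusted p = 0.305). The HSPA8 promoter holds runs of 3 repeats at -230 and -55 from the start, of which the printed stretch shows the nearer. No link between element and change was tested. BAG3, an inducible partner of HSP70 in selective autophagy, had 10.23, 10.27 and 9.79 and then 9.93, 10.24 and 9.95 with ST045849, against 10.17, 10.09 and 10.23 and then 10.07, 10.05 and 10.13 with vehicle. The treated arrays lay on both sides of the vehicle arrays (interval -0.22 to 0.10, adjusted p = 0.618). The small heat shock protein HSPB1 differed by -0.20 (adjusted p = 0.0935). HSPA4L (-0.04), DNAJA2 (-0.11), DNAJB4 (0.36), DNAJB6 (-0.17) and BAG2 (-0.29) were not called. A second DNAJB6 probe went the other way, by 0.35 ± 0.12 (adjusted p = 0.0336 over all kept probes), so that gene has no settled direction.

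In the chaperonin ring, CCT6A had 10.10, 9.92 and 9.84 with ST045849 at 12 hours and 9.73, 9.70 and 9.93 at 24 hours, against 10.13, 10.29 and 10.59 and then 10.41, 10.34 and 10.57 with vehicle. All 6 treated arrays were below all 6 vehicle arrays, and the change was -0.52 ± 0.11 (adjusted p = 0.000808, 69.8% of vehicle), with -0.33 ± 0.07 by its second probe. TCP1, the subunit after which the ring is named, had 10.76, 10.53 and 10.44 and then 9.70, 10.45 and 10.19 with ST045849, against 10.42, 10.97 and 10.91 and then 11.03, 10.78 and 10.87 with vehicle. The 24 hour groups were apart and the 12 hour groups overlapped, and the change was -0.49 ± 0.14 (adjusted p = 0.0102), with -0.56 ± 0.13 and -0.32 ± 0.10 by its other probes. CCT2 (-0.24, adjusted p = 0.0165), CCT8 (-0.17, adjusted p = 0.0199) and CCT7 (-0.15, adjusted p = 0.0472) fell by less. The CCT7 call was lost in 15 of 26 alternative settings (highest adjusted p = 0.129), the CCT8 call in 3 and the CCT2 call in 2, such as without ST045849 24 hours replicate 1 (-0.16, adjusted p = 0.0501 for CCT8, and -0.20, adjusted p = 0.0552 for CCT2). CCT3 (-0.18), CCT4 (-0.16) and CCT5 (-0.01) were not called, although all 8 subunits had a negative estimate. The CCT4 and CCT5 probes were dim, with mean levels of 6.3 and 7.01, where the background offset draws changes toward 0.

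Of the mitochondrial chaperones HSPA9 alone was called, upward. HSPA9, or mortalin, the HSP70 that pulls proteins into the matrix, had 11.91, 12.01 and 12.10 with ST045849 at 12 hours and 11.97, 11.70 and 12.02 at 24 hours, against 11.81, 11.64 and 11.42 and then 11.53, 11.60 and 11.48 with vehicle. Every treated array lay above every vehicle array of its own time, and the change was 0.37 ± 0.09 (adjusted p = 0.00222, 130% of vehicle). Under median scaling it was 0.25 (adjusted p = 0.0921). HSPD1, the matrix chaperonin HSP60, had 13.58, 13.46 and 13.65 and then 13.60, 13.41 and 13.50 with ST045849, against 13.60, 13.47 and 13.67 and then 13.60, 13.46 and 13.52 with vehicle. The groups overlapped, and the interval of the difference ran from -0.15 to 0.11 (adjusted p = 0.832), while another probe of the gene fell by 0.26 ± 0.09 (adjusted p = 0.0433 over all kept probes). HSPE1, the lid of that chaperonin, had 12.83, 12.90 and 12.81 and then 12.62, 13.01 and 12.83 with ST045849, against 12.92, 12.88 and 13.11 and then 12.95, 12.78 and 12.73 with vehicle. The groups overlapped (interval -0.22 to 0.10, adjusted p = 0.581). TRAP1, the mitochondrial HSP90, and DNAJA3, the matrix J-domain protein, differed by -0.04 and 0.02. HSPA9, HSPD1 and HSPE1, all with an E-box in a window, thus had changes of 0.37, -0.02 and -0.06.

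Genes with and without the elements were among those that fell. Of 18 tested genes with the pair of repeats 8 fell and 1 rose (median -0.22), and of 13 without it 6 fell (median -0.15). Of the 7 with 3 repeats 4 fell (median -0.24), and of the other 24 with a window 10 fell and 1 rose (median -0.17). PTGES3 and HSPH1, with some of the larger falls, had neither form in these windows. No test was made between these subsets.

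At the single times fewer genes passed. At 12 hours of ST045849 2 of 34 fell, against 5.28% of all genes, and 1 rose, against 5.73%, with 9 at an unadjusted p under 0.05. They were DNAJB1 (-0.41 ± 0.12, adjusted p = 0.034), STIP1 (-0.34 ± 0.11, adjusted p = 0.0424) and HSPA9 (0.39 ± 0.12, adjusted p = 0.0443). Of 34 genes 31 had a negative change (median -0.15, all genes 0), and 10 lay with all 3 treated arrays below all 3 vehicle arrays, against 14.8% of all genes. This count of 3 calls rested on single arrays: it was 0 without vehicle replicate 3 and 0 without ST045849 replicate 3, and 1 without vehicle replicate 1 or replicate 2. At 24 hours 11 of 34 fell (32.4%), against 10.7% of all genes, and 1 rose, against 13.6% (median -0.24, all genes 0.03). The falls were led by PTGES3 (-1.01 ± 0.27, adjusted p = 0.0089), TCP1 (-0.78 ± 0.20, adjusted p = 0.00654), HSPA4 (-0.69 ± 0.21, adjusted p = 0.0188), CCT6A (-0.65 ± 0.15, adjusted p = 0.0033) and CHORDC1 (-0.64 ± 0.15, adjusted p = 0.00469). STIP1 (-0.40), HSP90AA1 (-0.38), DNAJB1 (-0.34), HSP90AB1 (-0.31), DNAJA1 (-0.31) and CCT8 (-0.24) also fell, HSPA9 rose (0.36 ± 0.12, adjusted p = 0.0354), and 16 genes had no overlap of the 3 treated arrays below the 3 vehicle arrays, against 17.5%. The count of 12 calls was 5 without ST045849 replicate 1, 7 without ST045849 replicate 3 and 7 without vehicle replicate 3. The calls of PTGES3, CCT6A and CHORDC1 were kept in all 20 alternative settings other than the fold threshold, and that of TCP1 was lost without ST045849 replicate 1 (-0.57, adjusted p = 0.0522). The others were lost more often: DNAJB1 in 10 of the 20 settings, CCT8 in 9, DNAJA1 and HSPA9 in 8 each, HSP90AB1 in 5, HSPA4 in 3, and STIP1 and HSP90AA1 in 2 each. Without vehicle replicate 1 alone 6 of the 12 calls were lost, those of HSP90AA1, HSP90AB1, HSPA9, DNAJA1, DNAJB1 and CCT8.

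The larger 24 hour estimates did not amount to a called change with time. The difference between the 24 and the 12 hour effect was called for 0 of 34 genes by limma (0% of all genes), with 1 at an unadjusted p under 0.05, TCP1 (-0.59 ± 0.28, adjusted p = 0.765). For PTGES3 its interval ran from -1.51 to 0.06 and for HSP90AA1 from -0.45 to 0.12. The median was -0.08 over the 34 genes and 0.02 over all genes. Since 2 of 3 arrays at 24 hours and 1 of 3 at 12 hours belong to the first array set, time and set are mixed in this comparison.

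**Figure D4:**
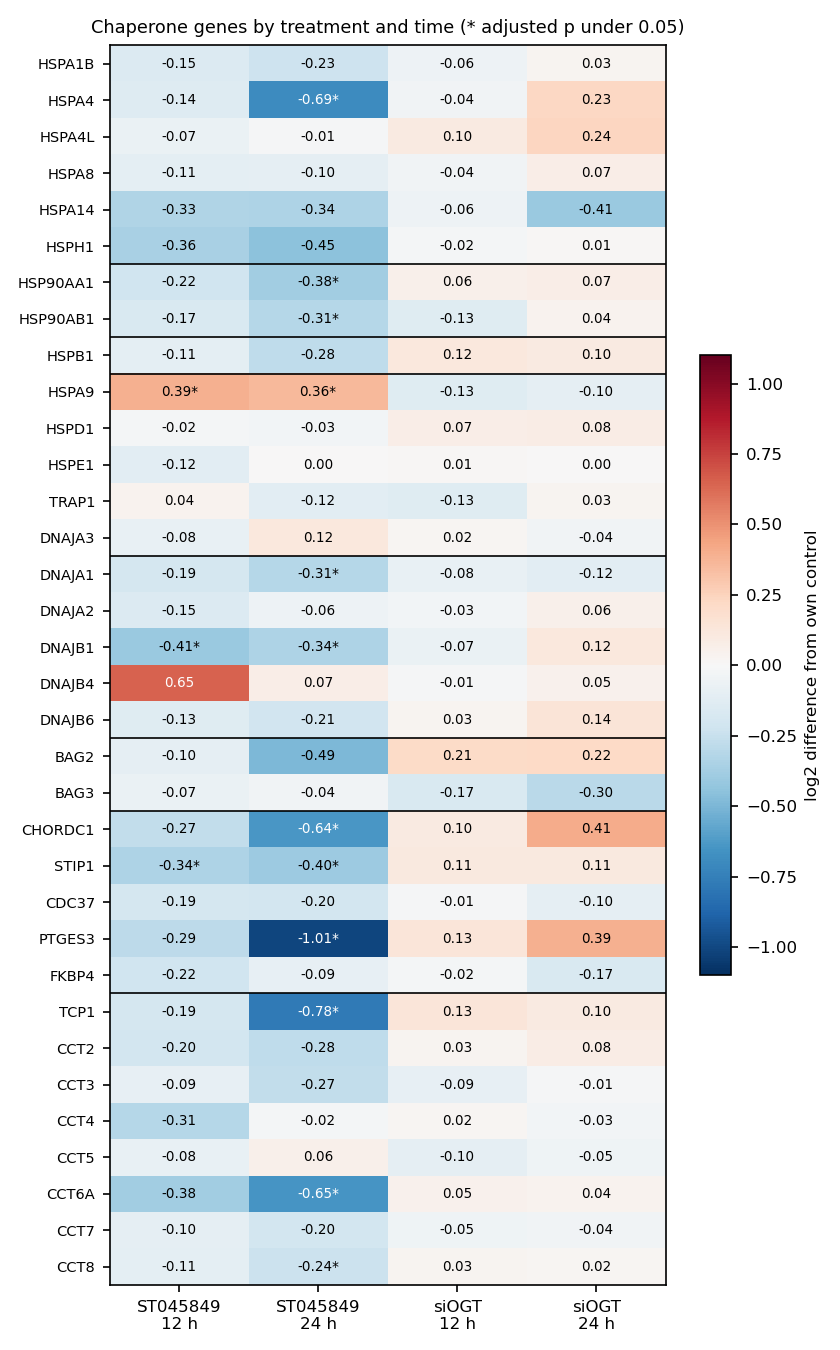
Log2 change of the 34 genes in each treatment comparison at 12 and 24 hours, 1 gene a row by role, with blue for lower and red for higher in treated cells and a star for an adjusted p under 0.05. Stars stand in the ST045849 columns, 3 at 12 hours and 12 at 24 hours, and none in the siOGT columns.

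With siOGT none of the chaperone genes was called. The count was 0 of 34 at 12 hours (0.00967% of all genes called), 0 of 34 at 24 hours (0.126%) and 0 of 34 over both times (0.193%) by limma, with 0, 3 and 3 at an unadjusted p under 0.05. Over both times 19 estimates were positive and 15 negative (median 0.01, all genes -0.01). The 95% intervals of the 34 differences reached down to -0.44 and up to 0.65, so that changes of the size seen with ST045849 were within the interval for some genes and outside it for others. For HSP90AA1, at 13.39, 13.43 and 13.71 (lowest, median and highest of 6) with siOGT and 13.27, 13.42 and 13.55 with scrambled RNA, the interval ran from -0.08 to 0.21. For DNAJB1, at 8.92, 9.17 and 9.24 with siOGT and 8.82, 9.15 and 9.20 with scrambled RNA, it ran from -0.15 to 0.20. Both intervals lay above the ST045849 estimates for these genes, -0.30 and -0.38.

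The 3 genes nearest to a call were BAG3, CHORDC1 and HSPA14. BAG3 had 9.98, 10.25 and 10.11 with siOGT at 12 hours and 9.97, 9.96 and 9.95 at 24 hours, against 10.31, 10.25 and 10.28 and then 10.30, 10.27 and 10.19 with scrambled RNA. The 24 hour groups were apart and the 12 hour groups met at 10.25, and the difference was -0.23 (interval -0.39 to -0.07, adjusted p = 0.199). CHORDC1 had 9.28, 9.47 and 9.88 and then 9.67, 9.40 and 9.41 with siOGT, against 9.41, 9.52 and 9.39 and then 9.20, 8.95 and 9.10 with scrambled RNA. At 24 hours all siOGT arrays were higher than the scrambled arrays, with a difference over both times of 0.26 (interval 0.03 to 0.48, adjusted p = 0.315). The 24 hour scrambled mean, 9.08, lay below the 24 hour means of siOGT (9.49) and vehicle (9.34). It also lay below the 12 hour scrambled mean (9.44). HSPA14 differed by -0.23 (interval -0.43 to -0.04, adjusted p = 0.284). HSPA1B (interval -0.22 to 0.19), HSPA8 (-0.14 to 0.17), HSPD1 (-0.06 to 0.20), HSPE1 (-0.15 to 0.16) and HSP90AB1 (-0.18 to 0.10) had intervals that held 0. Those of HSPA1B, HSPA8, HSPD1 and HSPE1 also held the ST045849 estimates, -0.19, -0.10, -0.02 and -0.06. That of HSP90AB1 did not (-0.24). These intervals are for the brightest probe. Other HSPD1 probes detected on all arrays differed by 0.24 ± 0.10 and -0.19 ± 0.09 (limma over all kept probes, adjusted p = 0.328 and 0.424). The second HSPE1 probe differed by -0.12 ± 0.28.

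The effects of the compound and of the RNA were also set against each other, with no control array shared between them. The ST045849 effect lay below the siOGT effect for 8 of 34 genes (23.5%), against 9.12% of all genes, and above it for 1, against 11.7%. The 8 were CHORDC1 (-0.71, interval -1.03 to -0.39, adjusted p = 0.00283), STIP1 (-0.48, adjusted p = 0.00334), CCT6A (-0.57, adjusted p = 0.0108), HSP90AA1 (-0.37, adjusted p = 0.011), PTGES3 (-0.91, adjusted p = 0.0197), DNAJB1 (-0.40, adjusted p = 0.0236), TCP1 (-0.60, adjusted p = 0.0338) and CCT2 (-0.29, adjusted p just under 0.05). For CHORDC1 and PTGES3 these values also hold siOGT differences of 0.26 each, beside ST045849 changes of -0.46 and -0.65. At 24 hours their scrambled means, 9.08 and 10.03, lay below their vehicle means, 9.34 and 10.56. HSPA9 was the gene above (0.49, interval 0.24 to 0.74, adjusted p = 0.00753). The calls of CHORDC1 and STIP1 were kept in all 38 alternative settings other than the fold threshold, whereas that of CCT2 was lost in 22, for example without ST045849 12 hours replicate 3 (-0.25, adjusted p = 0.0965), and that of TCP1 in 14, for example without ST045849 24 hours replicate 1 (-0.50, adjusted p = 0.0647). With the crossing replicates left out 3 of the 9 calls were kept, CHORDC1, STIP1 and HSPA9, and those of HSP90AA1 (adjusted p = 0.0636), DNAJB1 (0.0832), PTGES3 (0.185), CCT6A (0.16), TCP1 (0.204) and CCT2 (0.0691) were lost. HSPA9 was not called under median scaling (0.31, adjusted p = 0.174). Between the controls, scrambled against vehicle over both times, 0 of 34 genes were called by limma (0.155% of all genes), with 1 at an unadjusted p under 0.05, CCT5 (0.22, adjusted p = 0.268).

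Genes that work beside these chaperones were read against the same shares of all genes with ST045849 over both times, 14.7% lower and 17.7% higher, and these counts are small. Of 17 tested co-chaperones of HSP90 and HSP70 outside the 40, 5 fell (29.4%) and 1 rose (5.88%, median -0.09). CACYBP (-0.43), STUB1 (-0.33), NUDC (-0.27), FKBP5 (-0.42) and SGTA (-0.34) were lower and ST13 was higher (0.25). Of 21 other J-domain genes 4 fell (19%) and 3 rose (14.3%, median -0.03), near the shares of all genes, the clearest being DNAJC9, a histone co-chaperone (-0.62 ± 0.09, adjusted p = 2.17e-05). Of 8 prefoldin genes, whose product delivers actin and tubulin to CCT, 1 fell and 1 rose (12.5% each, median -0.05). In the mitochondrial matrix 2 of 12 protease and exchange factor genes rose (16.7%) and 1 fell (8.33%, median -0.01). LONP1, the matrix protease, rose (0.53 ± 0.08, adjusted p = 3.44e-05), while the HSPA9 exchange factors parted, GRPEL2 rising (0.36, adjusted p = 0.000718) and GRPEL1 falling (-0.40, adjusted p = 0.000378). Of 12 tested genes in a list of stress-inducible HSF1 targets and related genes outside the 40, 4 rose (33.3%) and 2 fell (16.7%, median 0.19). The list included HSF4, itself a heat shock factor, and HSBP1, a binding partner of HSF1. Its shares are therefore not those of HSF1 targets alone. ATF3, also a target of other stress pathways, rose by 1.39 ± 0.14 (adjusted p = 3.14e-07) and SQSTM1 by 0.57 (adjusted p = 0.00235), and MRPL18 fell by 0.47 (adjusted p = 0.00055). HSPA6, the strictly inducible HSP70, was detected on at most 2 of 24 arrays and not tested. With siOGT 0 genes of these 5 lists were called by limma.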

How the data were processed

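Biotin-labelled total RNA was read on Illumina bead arrays, per the labels. Raw probe intensity and a detection p-value for each array were deposited by the authors in 1 table, per the file headers, and their processed intensity in another, used as an alternative. The submitters' processing notes name GenomeStudio 2011.1. Normexp background correction by detection p-value with offset 16, quantile normalization and log2 were computed from the deposited raw values with limma 3.58.1 in R 4.3.3. The offset draws dim genes' changes toward 0. Probes with detection p under 0.01 on 3 of 24 arrays were kept (17633 of 47323), named from the platform annotation (30113 with 1 symbol, 8 with several, 17202 unnamed), and the brightest stood for each of 10345 genes. Samples were grouped by title. A fit of 8 group means with eBayes gave 9 contrasts, each with Benjamini-Hochberg adjustment over all genes and a call under 0.05. Sharing the spread assumes that it is alike in all groups. The number of arrays limits the precision. The scripts were tested on simulated data.

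Genes named with every array value were the 8 largest called changes of each comparison and HSPA1B, HSPA8, HSP90AA1, HSP90AB1, HSPD1, HSPE1, BAG3, DNAJB1 and CHORDC1. Other genes were named by their change. From neighbouring lists the clearest were named. The genes, the lists and the array sets were chosen with earlier results of these data known. Promoters are RefSeq, GRCh38.p14. Alternatives were other background corrections, offsets, scalings, filters and probe rules, the processed table, replicate number or array set as block, compared groups alone, array weights, a 1.5-fold threshold and leaving out arrays. Slides are not given in the file headers.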

Additional observations from a re-analysis of the deposited data

How the results depend on the processing

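The number of chaperone genes called kept to within 1.5 times in most settings, and no named gene's called change turned its sign (0). With ST045849 over both times 17 genes were called, between 13 and 18 with 1 array left out, and 1 with a 1.5-fold threshold. At 24 hours 12 were called, 5 to 17 with 1 array left out, 6 with the compared groups alone and 5 with the fold threshold. At 12 hours 3 were called, 0 to 2 with 1 array left out, 0 with median scaling, without a detection filter, with the compared groups alone or with the fold threshold, 5 with array set and its effect in each treatment, and 1, a different gene (0 of the 3 kept), with both crossing replicates left out. For ST045849 minus siOGT 9 were called, 7 to 12 with 1 array left out, 5 with the crossing replicates left out (3 of the 9 among them) and 3 with the fold threshold. The counts for siOGT, scrambled against vehicle and the change with time were 0 in every setting run. Except where a value or the setting's own construction shows it (fewer arrays, a fold minimum), the cause was not tested.

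Median scaling moved the median of all genes by -0.17 at 24 hours of ST045849 and -0.10 over both times, and the share of higher calls fell to 19% and 26.8%, against 55.9% and 54.6%. Then 17 and 21 chaperone genes were lower and 0 higher (medians -0.43 and -0.31, all genes -0.14 and -0.08), so that the rise of HSPA9 was not called under that scaling. In ST045849 minus siOGT that share was 16.9%, against 56.3%.

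Same-numbered arrays of the compared groups did not deviate together throughout (correlations -0.0701 to 0.274), so the numbers were not taken as pairs. With the replicate number within each time as a block, 3, 16 and 19 genes were called at 12 hours, 24 hours and over both times of ST045849, and 11 in ST045849 minus siOGT. Of these 3, 11, 16 and 8 were also called without it. Over both times the block added HSPA1B (-0.19 ± 0.05, adjusted p = 0.00809), HSPB1 (adjusted p = 0.0355) and CCT3 (adjusted p = 0.0291), which fell under it, and CCT7 was not called (adjusted p = 0.0524). A block across both times, added after seeing the data, gave 3, 15, 18 and 10. The array slide as a block was not run.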

Other observations

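Between the array sets, in the vehicle and scrambled arrays, the 34 chaperone genes differed by a median of 0.01 (first set minus second, -0.27 to 0.25), with 16 of 34 negative, and the median over all genes was -0.01. On the first principal component of all genes the ST045849 arrays lay at 25.9 to 29.2 in the first set and 14.1 to 20.4 in the second, and the vehicle arrays at -12.9 to -12.4 and -3.31 to -2.67. The median change of the 34 genes with ST045849 was -0.29 in the first set and -0.13 in the second. This difference between the sets was not tested.

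At 12 hours 6 of the 34 genes, HSPA4, DNAJB4, CHORDC1, PTGES3, TCP1 and CCT6A, had replicate 1 as the highest of the 3 ST045849 arrays and as the lowest of the 3 vehicle arrays. PTGES3, TCP1 and HSPA4, the 3 largest falls at 24 hours, were among them: 10.62, 10.76 and 8.61 with ST045849 and 9.64, 10.42 and 8.23 with vehicle. The siOGT replicate 1 array was the lowest of its 12 hour group for these genes (9.79, 10.58 and 8.15), and the scrambled replicate 1 array was the highest (10.43, 11.14 and 8.96). These values were picked after they were seen, and their cause was not tested.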
